A study of Mus musculus with 2 samples.

Results

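In mouse cerebral cortex, 7 miRNA genes described as bypassing the nuclear nuclease Drosha were followed: the transcription-start hairpins Mir320 and Mir484 and the mirtrons Mir877, Mir1224, Mir1981, Mir702 and Mir3102. They were chosen by name, with no measured value in the rule but with earlier results of these data known. All 7 were found among the 2202 miRNA genes of the count tables. Total RNA was taken from the left cerebral cortex. The 5xFAD/CAST mice were female and adult, with an age of 8 to 10 months. 5xFAD mice carry transgenes that include mutant human APP, driven by the neuronal Thy1 promoter, and amyloid plaques form in their brains. There were 2 libraries (replicates 1 and 2) in 1 group, made from different tissue samples under a single donor entry. Nothing in the labels assigns the samples to separate animals, so p-values measure only how far these libraries differ, and that spread may be technical. No library without the transgenes and none with Drosha removed was analysed here, so the route by which each miRNA was made is background and not a result.

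In the canonical route, Drosha with its partner Dgcr8 cuts a hairpin out of a long primary transcript, Dicer then cuts off the loop, and 1 arm of the duplex is loaded into an Argonaute protein. A mirtron is a short intron that folds into a hairpin once the spliceosome has cut it out and the lariat has been opened, so its ends are splice sites and Drosha is not needed. In transcription-start hairpins the RNA starts at the hairpin itself and stops shortly after, so the capped transcript is already the Dicer substrate. For Mir320 the capped hairpin leaves the nucleus through Exportin-1, and Argonaute takes up mainly the 3p arm.

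The splice sites are visible in the sequences. The hairpins of Mir877, Mir1224 and Mir1981 are shown because each is an entire annotated intron, and the capitals mark its first 2 and last 2 bases, the GU and AG of the splice sites. In Mir702 the capitals mark the GU alone, since the annotated hairpin stops short of the last bases of the intron. Sequences are from RefSeq on GRCm38.p6, 5′ to 3′, which held a hairpin for 5 of the 7 genes and mature arms for 6. For Mir320 no sequence is shown.
Mir877 hairpin: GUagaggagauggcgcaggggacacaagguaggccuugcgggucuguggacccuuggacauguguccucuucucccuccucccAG
Mir1224 hairpin: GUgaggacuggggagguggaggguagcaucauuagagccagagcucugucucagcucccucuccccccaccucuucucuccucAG
Mir1981 hairpin: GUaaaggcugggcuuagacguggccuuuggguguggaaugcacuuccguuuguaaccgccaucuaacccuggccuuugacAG
Mir702 hairpin: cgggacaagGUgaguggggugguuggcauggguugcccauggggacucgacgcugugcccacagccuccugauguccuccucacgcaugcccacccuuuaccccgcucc

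The mature 5p arms of the 5 mirtrons and the single annotated arm of Mir484 are shown with the seed, bases 2 to 8, in capitals. The seed is the stretch that pairs with target mRNAs. Mir702 and Mir3102 come first because their 5p arms have the same seed, UGAGUGG. No other mature arm in the RefSeq table has that seed, and no other arm of the 6 genes shares its seed with any gene of the table.
miR-702-5p: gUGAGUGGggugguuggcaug
miR-3102-5p: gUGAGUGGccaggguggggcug
miR-1224-5p: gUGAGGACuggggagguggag
miR-877-5p: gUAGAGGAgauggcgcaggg
miR-1981-5p: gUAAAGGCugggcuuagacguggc
miR-484: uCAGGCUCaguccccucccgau

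The 5 mirtron labels matched the annotation. On mm10, with GENCODE M21, the hairpins of 4 of the 5 began and ended exactly with an annotated intron. Mir877 (ENSMUSG00000077931.1; chromosome 17, 35960730 to 35960814, minus strand) is an 85-base intron of Abcf1, an ATP-binding cassette protein that acts in translation. Mir1224 (ENSMUSG00000080669.1; chromosome 16, 20604452 to 20604536, plus strand) is an 85-base intron of Vwa5b2. Mir1981 (ENSMUSG00000088559.1; chromosome 1, 184822407 to 184822488, minus strand) is an 82-base intron of Marc2, a mitochondrial reductase. Mir3102 (ENSMUSG00000093296.1; chromosome 7, 100882306 to 100882409, minus strand) is a 104-base intron of Arhgef17, a guanine nucleotide exchange factor, and is exonic in 1 of the 3 Arhgef17 transcripts. Mir702 (ENSMUSG00000076240.1; chromosome 5, 136991433 to 136991541, plus strand) lies on an intron of Plod3, a collagen lysyl hydroxylase. Its annotated hairpin of 109 bases starts 9 bases before the 102-base intron, in coding exon sequence, and stops 2 bases before the end of the intron.

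The annotated mature arms also lay at the splice sites. All 5 of the outer 5p arms started at the first base of the intron, that of Mir702 included. So did 13 of 20 5p arms of other genes that match an intron at both ends, and 6 of 701 of the remaining genes. All 5 of the outer 3p arms ended within 2 bases of the last base of the intron. So did 16 of 18 3p arms of the other matching genes and 174 of 707 of the remaining genes. Among the detected genes of that remainder it was 9 of 250. Mir3102 has a second pair of annotated arms inside the first: its inner 5p arm starts 22 bases into the intron, where the outer 5p arm stops. All 5 outer 5p arms opened with GU, as a 5p arm that starts at a splice site does, against 60.0% of 20 5p arms of other genes that match an intron at both ends and 3.14% of 701 5p arms of the remaining genes. The 5p arms were rich in purines, with 62.5% (Mir1981) to 81.0% (Mir1224) A or G, against a median of 54.5% in those 701 arms. The 20 5p arms of the other genes that match an intron at both ends had a median of 73.9%. The 3p arms held 56.5% (Mir3102) to 90.9% (Mir877) C or U, against a median of 59.1% in 707 3p arms of the remaining genes. In 18 3p arms of the other genes that match an intron at both ends, the median was 73.9%. Introns commonly end in a pyrimidine tract. The GC content of the 5 hairpins with a RefSeq sequence, which leave out Mir320 and Mir3102, lay between 53.7% (Mir1981) and 65.1% (Mir702). The median was 51.7% (interquartile range 45.0 to 57.6) in 963 other hairpins. In the 19 of them that match an intron at both ends, the median was 60.5%. The minimum free energy per 100 bases of the 5 hairpins had a median of -42.9 kcal/mol, with -36.7 for Mir484 and -50.4 for Mir1224. The median was -40.5 in the 963 other hairpins and -43.7 in the 257 of them that were detected.

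**Figure D1:**
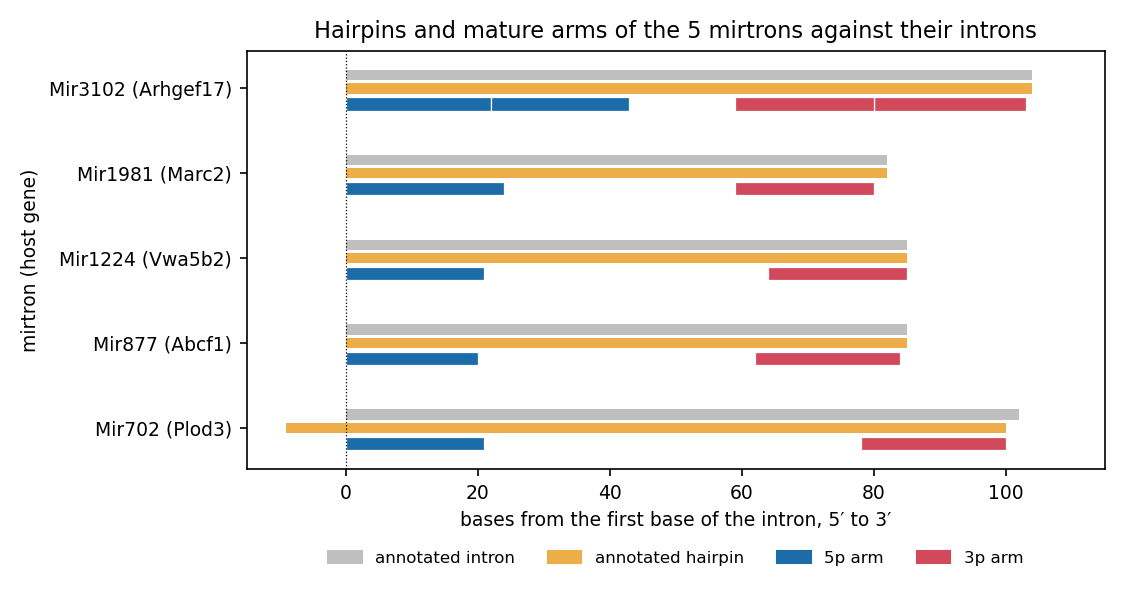
Positions of the annotated intron, the annotated hairpin and the mature arms of the 5 mirtrons, in bases from the first base of the intron (x axis), with 1 gene per row. All 5 of the 5p arms start at the first base of the intron, and the hairpin of Mir702 starts 9 bases before it.

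The 2 transcription-start hairpins lay outside every annotated transcript of their own strand other than those of miRNA genes. Mir320 (ENSMUSG00000065528.1; chromosome 14, 70443510 to 70443591, plus strand) lies 63 bases upstream of the start of Polr3d, a subunit of RNA polymerase III that is transcribed the other way, and 13966 bases before the nearest start on its own strand, that of Phyhip. Mir484 (ENSMUSG00000070074.1; chromosome 16, 14159626 to 14159692, plus strand) lies 359 bases upstream of the start of Marf1, also transcribed the other way, and 3649 bases before the nearest start on its own strand, that of Nde1. Starts of miRNA genes, of other small, ribosomal or miscellaneous RNA genes and of genes typed TEC were left out of the search. Among the other genes, M21 holds no transcript start at either hairpin. Their name thus rests on published work and was not visible in the part of the annotation searched.

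All 7 genes had counts in the cortex. Short pieces of the host introns, or of host exons for Mir702 and Mir3102, can be in the counts of the mirtrons. Levels are given as CPM, the count of a gene per 1000000 counts on miRNA genes. Each gene reached 10 CPM in both libraries, the level called detected here, which 14.0% of all 2202 genes reached. Together they took 0.768% of the counts in replicate 1 (Wilson 95% interval 0.759 to 0.776) and 0.934% in replicate 2 (0.926 to 0.942). Mir320 and Mir484 held 0.592% ± 0.135 of all counts and the 5 mirtrons 0.259% ± 0.0172 (SD, n = 2 libraries each). In tissue RNA, fewer cells of a type and less RNA per cell cannot be told apart. The median of the 7 mean levels was 653 CPM, against 231 CPM in the 302 other detected genes. The 7 were chosen with earlier results of these data known, so that comparison is a description only. Reads that map to several places are outside these counts, and 1128 hairpins of the 2202 genes share 18 bases with another hairpin. The 7 share none, so their shares, their ranks and that comparison may lean towards them. Levels are not divided by hairpin length, since a count is 1 small RNA read under 30 nt and not a fragment of the hairpin. Dividing by length left the order of the 7 as it was.

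Mir320 was the most abundant of the 7. Its counts were 15170 (replicate 1) and 29170 (replicate 2), or 3589 and 5651 CPM, and its mean of 4620 ± 1457 CPM (SD, n = 2) ranked 43 among all 2202 genes. It supplied 46.8% of the counts of the 7 genes in replicate 1 and 60.5% in replicate 2. Mir484, known in heart muscle for acting on mitochondrial fission, had 5805 and 6282 counts, or 1374 and 1217 CPM, with a mean of 1295 ± 111 CPM and rank 83. The mean of Mir320 was 3.57 times that of Mir484, and the libraries of the pair did not overlap. Mir320 was thus set apart from the other 6 genes in both libraries.

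Among the mirtrons, Mir3102 was highest. Its counts were 3885 (replicate 1) and 3995 (replicate 2), or 919 and 774 CPM, with a mean of 847 ± 103 CPM and rank 103. Its row sums 4 annotated arms, so the outer and inner duplexes cannot be told apart. Mir1981 had 2402 and 3804 counts, or 568 and 737 CPM, with a mean of 653 ± 119 CPM and rank 111. The order from Mir320 through Mir484 and Mir3102 to Mir1981 held without overlap of the libraries of neighbours, although Mir3102 in replicate 2 and Mir1981 in replicate 2 stood close.

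The remaining 3 mirtrons lay lower and closer together. Mir1224 had 1913 and 2085 counts, or 453 and 404 CPM, with a mean of 428 ± 34.5 CPM. Mir877 had 1763 and 1733 counts, or 417 and 336 CPM, with a mean of 376 ± 57.6 CPM. Mir702 had 1505 and 1136 counts, or 356 and 220 CPM, with a mean of 288 ± 96.2 CPM (SD, n = 2 each). Mir1224 and Mir877 overlapped in the ranges of their 2 libraries, as did Mir877 and Mir702, so the order of these neighbours is within the spread, although it was the same in each library. The mirtrons ranked between 103 and 148 among all genes. The lowest count of the 7 in a library was 1136, for Mir702 in replicate 2.

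**Figure D2:**
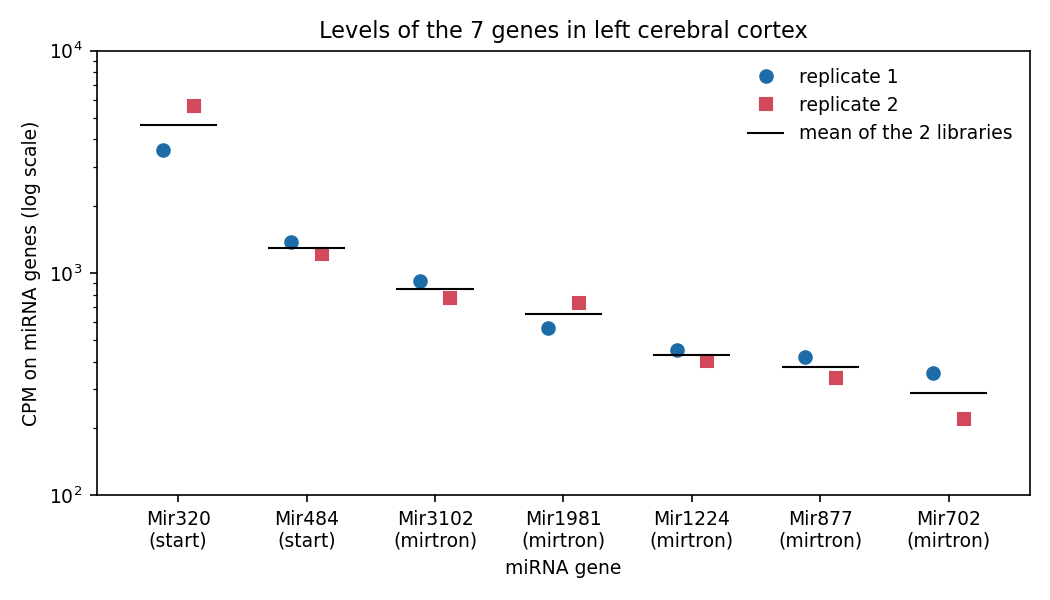
CPM on miRNA genes (y axis, log scale) of the 7 genes, in order of their mean, in replicate 1 (circles) and replicate 2 (squares), with the mean as a line. Mir320 sits at 3589 and 5651 CPM, above the other 6 in both libraries.

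Genes with levels most like these were found as the neighbours in mean CPM among all genes, over 2 libraries. Mir320 stood between Mir99b (4712 CPM) and Mir138-1 (4532 CPM), Mir484 between Mir341 (1296) and Mir93 (1275), and Mir3102 between Mir150 (881) and Mir346 (771). Mir1981 stood between Mir425 (653 CPM) and Mir381 (615 CPM), Mir1224 between Mir181a-1 (438) and Mir451a (426), Mir877 between Mir375 (388) and Mir543 (365), and Mir702 between Mir30c-2 (313) and Mir296 (284). In all 14 cases the range of the neighbour over the 2 libraries overlapped that of the member. Mir138-1, Mir181a-1 and Mir30c-2 share stretches of 18 bases with other hairpins, and reads that map to several places are outside these counts, so their levels are uncertain. The 7 hairpins share no such stretch with another miRNA hairpin. None of the 7 lies opposite another miRNA gene, and each had 0 counts on the opposite strand and the same count in the unstranded column as on its own strand.

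The 5 mirtrons were the most abundant of the class that annotation gives at a tolerance of 10 bases. By annotation alone, 29 of the 2202 genes have both ends within 10 bases of the ends of 1 intron, and in 22 of them both ends coincide with those of the intron. Mir702 belongs to the class at this tolerance and not at 5 bases, where 23 genes remain. Of these 29, 9 were detected, 12 had counts below that level and 8 had no count in either library. The 5 genes described here were the top 5 by mean CPM. They held 88.3% of the counts of the class in replicate 1 and 87.0% in replicate 2. They were chosen with earlier results of these data known, so their place in the class is a description and not an independent result. Mir702, the lowest of the 5, had 220 CPM in its lower library, and the next gene, Mir3547, had 175 CPM in its higher one.

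The class had 4 other detected genes, all below the lowest of the 5. Mir3547, in Baiap3, a gene of vesicle trafficking, had 140 and 175 CPM. Mir7080, in Cpne7, a calcium-dependent membrane-binding copine, had 121 and 122 CPM. Mir6944, in Dbn1, which encodes the dendritic spine protein drebrin, had 46.8 and 28.9 CPM. Gm24589, in Pkd1, had 23.4 and 21.9 CPM. Next came Mir1231, in Nav1, at 4.97 and 6.39 CPM, below detection. Mean levels were thus 288 CPM or more in the 5 mirtrons and 157 CPM or less in the rest of the class, and those 24 genes together took 0.0361% of the counts in replicate 1 and 0.0368% in replicate 2.

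**Figure D3:**
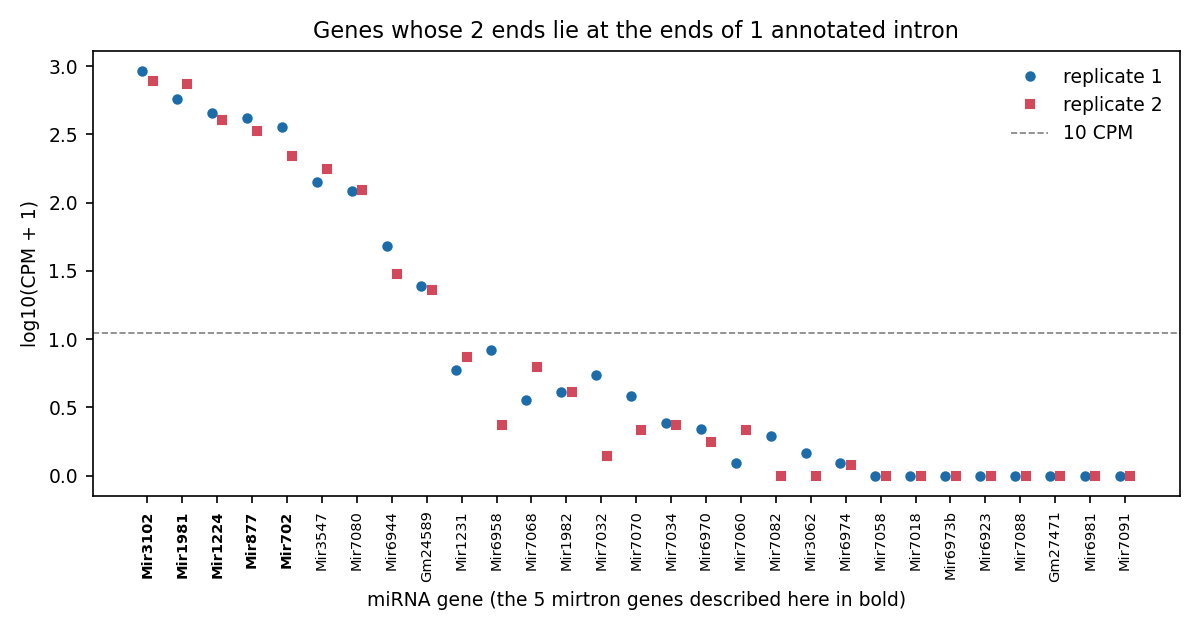
Levels of the 29 genes whose ends lie within 10 bases of the ends of 1 intron, as log10(CPM + 1), in replicate 1 (circles) and replicate 2 (squares), in order of mean CPM. The 5 mirtrons described here (bold) lie highest, 4 further genes lie above the dashed line at 10 CPM, and 8 have no count.

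Levels of 4 further non-canonical miRNAs, a list fixed with earlier results known, are given beside those of the 7 genes. Mir1839, which lies in a small Cajal body RNA gene of the same name, had 1362 and 1777 CPM. Mir664, inside the small nucleolar RNA Snora36b, had 275 and 268 CPM, and Mir1983, described as derived from a tRNA, had 303 and 244 CPM. The tables hold rows for miRNA genes alone, so reads from the surrounding small RNA can be in these counts. Mir451a, an erythroid miRNA that needs Drosha but is cut by Ago2 in place of Dicer, had 30.0 CPM in replicate 1 and 821 CPM in replicate 2. It lies opposite Mir451b, and it has 0 counts in the unstranded column. Its libraries were far apart, unlike those of the other 3.

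The 2 libraries differed for each of the 7 genes by more than counting error, and by modest folds. All 7 passed an adjusted p of 0.05 (exact binomial test, Benjamini-Hochberg over 546 tested genes): 5 were higher in replicate 1, and replicate 2 had more of the other 2. The test called 58.8% of all tested genes, 34.2% higher in replicate 1 and 24.5% higher in replicate 2. Among the 106 genes at levels within the range of the 7, which include them, it called 87.7%, so 7 of 7 calls is not a result about these genes. The median size of the log2 ratio was 0.34 for the 7, 0.35 for the 106 genes at like levels and 0.50 for all tested genes. The test has no estimate of the spread between replicates and compares those libraries, not conditions.

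Mir320 and Mir1981 were the genes higher in replicate 2. The fold of replicate 1 over replicate 2 was 0.649 for Mir320 (exact 95% interval 0.636 to 0.662) and 0.788 for Mir1981 (0.749 to 0.830; adjusted p = 1.49e-19, exact binomial test). The blood markers Mir451a, Mir144 and Mir486 summed to 0.00724% of the counts in replicate 1 and 0.0887% in replicate 2; Mir451a and Mir144 were higher in replicate 2, Mir486 was higher in replicate 1, and none was at 0. The endothelial marker Mir126a took 0.776% of counts in replicate 1 and 1.31% in replicate 2. The pancreas marker Mir375 and the muscle marker Mir206 were also called higher in replicate 2. Of the microglia and immune markers, 2 were called higher in replicate 1 and 1 in replicate 2. The part of blood, vessels or other tissue in the difference of Mir320 and Mir1981 was not tested.

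Mir702 had the largest ratio towards replicate 1, at 1.65 (1.53 to 1.79; adjusted p = 3.78e-37, exact binomial test). Mir3102, which shares its 5p seed, had a ratio of 1.21 (1.16 to 1.27, adjusted p = 3.68e-17, exact binomial test). Both are among the 5 of the 7 genes that were higher in replicate 1, and their counts do not separate the arms. Mir877 stood at 1.27 (1.19 to 1.36), Mir484 at 1.15 (1.11 to 1.20) and Mir1224 at 1.15 (1.08 to 1.22), the last with the largest adjusted p of the 7 (5.05e-05, exact binomial test). The epithelial markers Mir200c, Mir141 and Mir429, all 3 higher in replicate 1, summed to 0.0250% of counts in replicate 1 and 0.0115% in replicate 2. The 5 neuron markers summed to 6.71% in replicate 1 and 4.26% in replicate 2, with 4 of the 5 called higher in replicate 1 and a median log2 ratio of 0.09. Both oligodendrocyte markers, Mir219a-2 and Mir338, were called higher in replicate 1, with a sum of 0.709% in replicate 1 and 0.533% in replicate 2. The part of these lists in the ratios was not tested. With an assumed replicate spread (biological coefficient of variation, BCV) of 0.1, the exact test of edgeR called Mir320 (adjusted p = 0.0118) and Mir702 (adjusted p = 0.00405), with 28.8% of tested genes called. At the BCV of 0.481 fitted to these libraries it called 0 of the 7 and 1.10% of tested genes, and 0 of the 7 had an unadjusted p under 0.05. That fit takes the difference between the 2 libraries itself as the spread, so few calls are built in.

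Among the 24 other mirtrons by annotation, 4 of 11 tested genes passed (36.4%), against 58.8% of all tested genes. Of those 4, Mir3547 had more in replicate 2 and 3 had more in replicate 1. Of the 3, Mir6944 alone was detected, and the others had 31 counts or fewer in each library. Mir6944 had a ratio of 1.66 (1.33 to 2.07) and Mir3547 of 0.818 (0.736 to 0.908). Mir7080 had 1.02 (0.904 to 1.15) and was not called. Of the 4 further non-canonical miRNAs, Mir1839 had a ratio of 0.783 (0.758 to 0.810), Mir451a of 0.0375 (0.0311 to 0.0446), Mir1983 of 1.27 (1.17 to 1.37) and Mir664 of 1.05 (0.968 to 1.13; adjusted p = 0.348, exact binomial test).

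**Figure D4:**
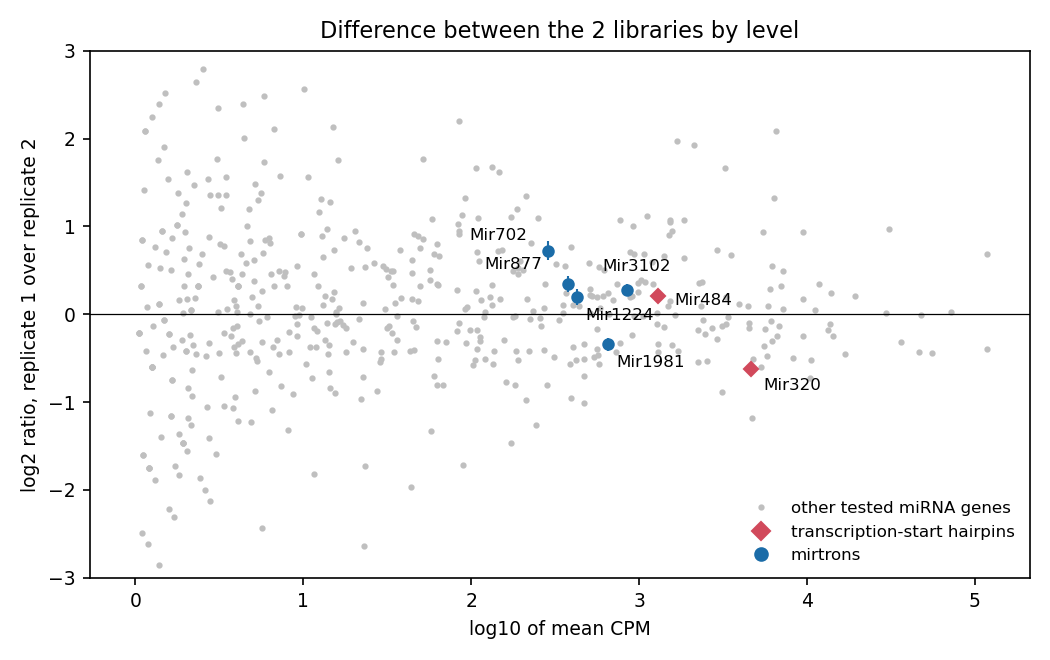
Log2 ratio of replicate 1 over replicate 2 (y axis) against log10 of mean CPM (x axis) for tested miRNA genes, with the 2 transcription-start hairpins as diamonds, the 5 mirtrons as circles and exact 95% intervals as bars. The 7 genes lie between -0.62 (Mir320) and 0.73 (Mir702), and 22 other genes lie outside the axis at 3.

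Depth was 12978140 reads (replicate 1) and 15950006 reads (replicate 2), and 4226300 and 5162369 of them fell on miRNA genes in sense. Reads mapping to several places took 40.4% and 39.4%. The 5 neuron markers were all detected. No list of markers for brain regions was used, so cortex itself was not checked. Markers of tissues other than cortex were present in part: the pancreas marker Mir375 averaged 388 CPM, the muscle marker Mir206 45.4 CPM, and 2 of 3 epithelial markers were detected. Of 2 choroid plexus markers, 1 was detected, at a mean of 44.2 CPM. The liver and gut markers Mir192 and Mir215 had 40 counts in replicate 1 and 34 in replicate 2 and were not detected.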

How the data were processed

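Small RNA libraries of 2 tissue samples, both of 1 group, were analysed. The authors deposited 1 table of raw read counts per library, with rows for the miRNA genes of GENCODE M21 on mm10, per the record that accompanies each file. Each library has its own table. Aligner, counter and adapter trimming were not given in the sources used here. In each table, 4 rows name no gene (reads unmapped, mapped to several places, outside miRNA genes or ambiguous). They held 67.4% and 67.6% of reads and entered neither library sizes nor tests. All 2202 IDs matched M21. The sense-strand column was used. A row is a hairpin, so the 5p and 3p arms are summed, and neither arm, read length nor read ends can be recovered.

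CPM scales each count to a total of 1000000 on miRNA genes. Each gene with 10 or more counts in the sum was tested between libraries by a two-sided exact binomial test on TMM-scaled library sizes (edgeR 4.0.16, scipy 1.17.1), with Benjamini-Hochberg adjustment over all tested genes and a threshold of 0.05. The fold is replicate 1 over replicate 2, with 0.5 counts added to each library. An edgeR exact test at a fixed biological coefficient of variation (BCV) of 0.1, and at the BCV of an intercept-only fit (0.481), were alternatives, as were the unstranded column, DESeq2 1.42.0 size factors, total counts, other filters, denominators and tolerances. The binomial test was tried on simulated counts with counting error only, which does not bear on spread between replicates. The annotation match was tried on a small made-up annotation. Hairpins were folded with RNAfold 2.7.2. Intervals cover counting error only, since reads without molecular identifiers are not independent molecules.

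Named genes were the 7 members, the genes directly above and below each in mean CPM, genes sharing a seed with a member, the 10 most abundant mirtrons by annotation, and the other non-canonical miRNAs. The members and lists were chosen with earlier results of these data known.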

Additional observations from a re-analysis of the deposited data

How the results depend on the processing

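Leaving out 1 library gave a median member level of 568 to 737 CPM, a summed member share of 0.768% to 0.934%, and a share of the other non-canonical miRNAs of 0.197% to 0.311%, while 7 members and 9 mirtrons by annotation were detected each time. With all reads of the table as denominator the median level was 212 CPM, the summed share 0.276% and the share of the other non-canonical miRNAs 0.0824%, by construction, since about 32% of reads lie on miRNA genes. With a BCV of 0.1 the exact test of edgeR called 157 genes and 2 members, in place of 321 and 7. With the fitted BCV, which holds the difference between the libraries itself, it called 6 genes and 0 members (unadjusted p under 0.05: 29 genes, 0 members). In 9 alternative fits, 12 of the 63 member ratios lost their call, all under these 2 edgeR tests, and none changed sign. Of these fits, 1 (TMM factors over all genes, 313 calls) was added after the data were seen. The edgeR tests and the other count filters kept the main ratios by construction, so a sign could change only under the remaining fits. A tolerance of 5 bases gave 23 mirtrons by annotation, without Mir702, with 8 detected and 0.266% of the counts. A tolerance of 20 bases gave 49 mirtrons by annotation with 5.83% of the counts, nearly all from Mirlet7i (55297 CPM), which lies inside a 116-base intron. Mir451a stood at 0 CPM in the unstranded column, against 426 CPM on its own strand. No paired analysis was possible because there is 1 group. Arms, read ends and multi-mapped reads cannot be resolved from these tables, and with 2 libraries means and SDs are imprecise.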

Other observations

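Hairpins with 1 end only at a splice site were more numerous than those with both, and most were not detected. These genes and the ones named here were chosen after their values were seen. In 215 genes the 3′ end alone lay within 10 bases of the end of an intron, the arrangement known as a 5′-tailed mirtron. The median over the 215 was 0.882 CPM. Of these, 15 (6.98%) were detected, against 14.0% of all genes, and the detected genes had a median of 15.5 CPM. The highest, Mir382 at 9468 ± 1307 CPM, belongs to the imprinted Mirg transcript, whose introns and hairpins lie close together, and the position alone does not make it a mirtron. The other 14 were below 100 CPM, led by Mir7044 in Rasgef1a at 62.5 ± 23.0 CPM (SD, n = 2). A 5′ end alone at the start of an intron was found in 15 genes, of which 2, Mir369 and Mir668 in Mirg, were detected.

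Of 35 intergenic miRNA genes within 500 bases upstream of a start on the opposite strand, a window chosen after the positions of Mir320 and Mir484 were seen, 3 (8.57%) were detected, against 8.61% of all 987 intergenic genes. The 3 were Mir320, Mir484 and Mir673, which stood at 562 ± 54.6 CPM (SD, n = 2).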
